A study of Mus musculus with 8 samples.

Results

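The genes described are 10 genes of interleukin 1, inflammasome and tumour necrosis factor (TNF) signalling, taken by name from a count table of 54854 genes of the mouse pituitary: Il1b, Il1a, Il1rn, Il1r1, Il18, Nlrp3, Casp1, Tnf, Tnfrsf1a and Tnfrsf1b. All 10 were found. Whole pituitaries came from C57BL/6N mice at 5 weeks of age, and RNA was sequenced from 4 mice given anti-CD115 and 4 mice given an isotype control. Anti-CD115 is the antibody AFS98, which blocks CSF1R, the receptor that most tissue macrophages need for survival; controls received rat IgG2a of clone 2A3. In both groups the antibody went first to the pregnant dam, 3 mg into the peritoneum on embryonic day 6.5, and then to the offspring, 100 µg on postnatal day 2, 150 µg on day 14 and 200 µg at 4 weeks. Replicate 1 of each group was female and the other 3 were male, and the labels name no mutant allele in either group. The labels call the libraries biological replicates and do not say from how many dams they came, so litter and treatment cannot be told apart.

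Interleukin 1 alpha and beta are cytokines that signal through the receptor encoded by Il1r1, and the antagonist encoded by Il1rn occupies the same receptor without signalling. Interleukin 1 beta and interleukin 18 are made as precursors, which caspase 1 cuts once a sensor such as NLRP3 has assembled an inflammasome. TNF signals through a widely expressed receptor, encoded by Tnfrsf1a, and a second receptor, encoded by Tnfrsf1b, that is found mainly on immune and endothelial cells. Macrophages are a main source of interleukin 1 beta and TNF in many tissues, and in the pituitary these cytokines are known to modulate hormone release during inflammation.

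The promoters of 4 of the genes are shown, those of the 2 genes with the smallest adjusted p-values (Il1b and Tnfrsf1b) and those of Il1a and Tnf, the cytokine genes among the 3 that had too few counts to test. Each is the 250 bases before the RefSeq transcription start on build GRCm38.p6, read 5′ to 3′ on the minus strand, which is the coding strand of all 4 genes. Capitals mark matches on either strand to TATAAA, the letters of a TATA box, or to GAGGAA, the core recognised by PU.1, a transcription factor of macrophages. The windows are chr2:129371140-129371389 for Il1b, chr2:129309973-129310222 for Il1a, chr17:35202008-35202257 for Tnf and chr4:145246871-145247120 for Tnfrsf1b.
Il1b: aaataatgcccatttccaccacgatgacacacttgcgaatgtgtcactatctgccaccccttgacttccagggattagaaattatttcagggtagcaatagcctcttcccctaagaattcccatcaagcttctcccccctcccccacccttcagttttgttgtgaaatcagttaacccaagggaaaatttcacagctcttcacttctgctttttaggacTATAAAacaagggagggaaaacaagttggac
Il1a: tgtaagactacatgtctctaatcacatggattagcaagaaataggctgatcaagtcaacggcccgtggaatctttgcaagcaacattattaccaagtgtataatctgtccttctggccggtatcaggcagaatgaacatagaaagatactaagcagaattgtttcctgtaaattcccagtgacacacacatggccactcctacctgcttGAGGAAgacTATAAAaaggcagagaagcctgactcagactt
Tnf: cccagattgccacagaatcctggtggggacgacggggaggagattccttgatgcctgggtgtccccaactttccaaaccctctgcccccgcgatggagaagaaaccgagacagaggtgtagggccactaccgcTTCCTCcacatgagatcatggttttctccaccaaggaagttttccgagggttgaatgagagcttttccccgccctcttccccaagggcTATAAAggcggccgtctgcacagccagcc
Tnfrsf1b: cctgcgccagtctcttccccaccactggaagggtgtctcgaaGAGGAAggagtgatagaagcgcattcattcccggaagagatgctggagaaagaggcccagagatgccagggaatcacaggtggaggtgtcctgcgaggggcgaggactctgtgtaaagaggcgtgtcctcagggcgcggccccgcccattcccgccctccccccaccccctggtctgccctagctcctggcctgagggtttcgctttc
TATAAA had its first base 31 bases before the start in Il1b, 32 in Il1a and 29 in Tnf, and the Tnfrsf1b promoter held none. The fourth cytokine gene, Il18, has the TATA box letters only on the opposite strand, 175 bases before its start. In all, 4 of the 14 RefSeq promoters of the members held the TATA box letters and 5 held the PU.1 core. GAGGAA began 41 bases before the start in Il1a and 208 before it in Tnfrsf1b, lay 117 bases before it on the opposite strand (as TTCCTC) in Tnf, and was not in the Il1b window. TATAAA occurred in 12.4% and GAGGAA in 23.3% of 32851 mouse promoter windows of the same length. These matches describe letters only.

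Library totals ran from 23289819 to 36218096 counts, so that the limit allowed by a count of 0 (3 counts) lay between 0.0881 and 0.126 CPM (counts per 1000000 counts after TMM scaling, a correction for library composition). Levels below are in TMM-normalised CPM unless stated, with error as SD over n = 4. Intervals on counts and these limits cover counting error only. Endocrine pituitary markers, among them the hormone genes Gh, Prl and Pomc, summed to between 206797 and 297769 CPM in every library. Of 16 macrophage markers, 15 fell, with a summed level of 264 to 369 CPM in controls and 18.7 to 65.9 CPM after anti-CD115. The exception was Cd14 (log2 fold change -1.29, edgeR adjusted p = 0.285), and no marker was at 0 in all treated libraries.

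Tnfrsf1b was the member that fell. Of the 10 genes, 7 were tested and 1 passed as lower, against 0.829% of the 17723 genes tested in the whole table; none passed as higher, against 0.0395%, and 0.869% of all genes passed in either direction. The largest fitted difference among the members tested was that of Il1b, 8.18-fold lower, with an edgeR adjusted p just above 0.05. Il1b passed the low-count filter only through its controls, so a difference was fixed in advance. Nothing is read from its size or its p. Tnfrsf1b had every treated library below every control, as did 3.31% of all genes tested. The same held for Il1b and Casp1, but there the low-count filter fixed it: each reached the filter's level in the 4 controls and in 0 treated libraries, and nothing is read from it. Il1r1, Il18 and Tnfrsf1a were clearly expressed and did not pass the test. Il1a, Il1rn and Tnf had too few counts to be tested in that fit. In whole tissue, fewer cells of a type and less RNA per cell cannot be told apart.

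**Figure D1:**
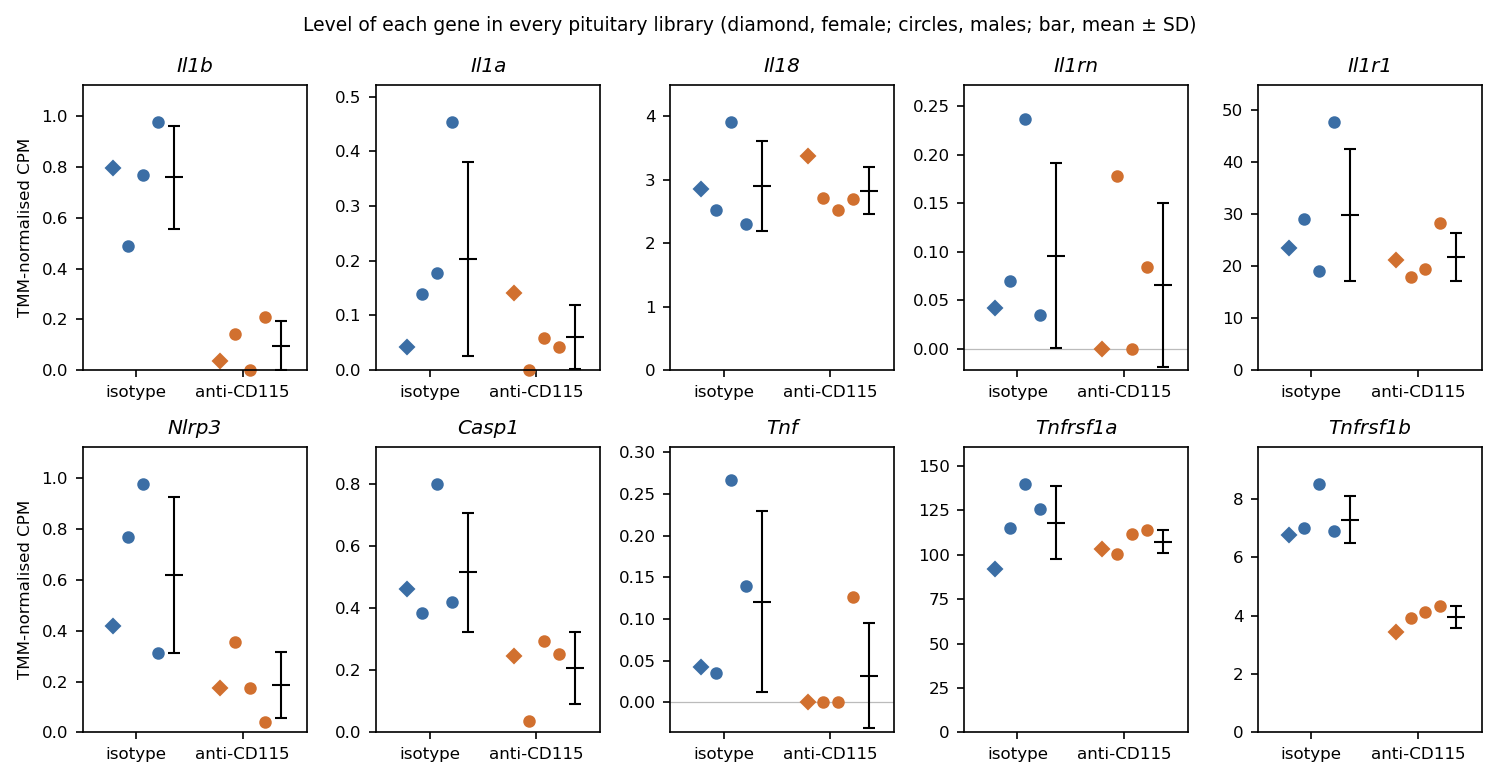
Level of each of the 10 genes in TMM-normalised CPM (y axis, own scale per panel) in the 4 isotype control and 4 anti-CD115 libraries, with a diamond for the female, circles for males and bars for the mean ± SD. All treated libraries of Tnfrsf1b lay below all controls, as did those of 3.31% of all genes tested. The groups of Il1b and Casp1 also did not overlap, but there the low-count filter fixed it. Treated libraries at 0 are seen for Il1b, Il1a, Il1rn and Tnf.

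The levels differed widely among the genes. On the deposited FPKM scale, which divides by gene length, control means were 45.1 ± 7.60 for Tnfrsf1a, 4.66 ± 1.98 for Il1r1, 2.79 ± 0.667 for Il18 and 1.89 ± 0.201 for Tnfrsf1b. Below these receptors and Il18 stood Il1b at 0.395 ± 0.105 FPKM, Casp1 at 0.342 ± 0.124 and Nlrp3 at 0.151 ± 0.0744. The lowest were Il1a at 0.102 ± 0.0891 FPKM, Tnf at 0.0729 ± 0.0649 and Il1rn at 0.0171 ± 0.0169. Neighbours in this order whose control libraries overlapped were Il1r1 and Il18, Il1b and Casp1, Nlrp3 and Il1a, Il1a and Tnf, and Tnf and Il1rn. After anti-CD115 the order of the means was the same but for Il1b, whose mean of 0.0507 FPKM stood below the 0.137 FPKM of Casp1.

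Il1b encodes interleukin 1 beta (ENSMUSG00000027398, chr2:129364570-129371139 on the minus strand; gene coordinates are those of the deposited table, build GRCm38). Control libraries 1 to 4 had 0.798, 0.490, 0.770 and 0.979 CPM, and the anti-CD115 libraries had 0.0351, 0.143, 0 and 0.210 CPM. Every treated library lay below every control library, which the low-count filter fixed in advance. These levels rest on 19, 14, 26 and 28 counts in the controls and on 1, 4, 0 and 5 counts in the treated libraries. The mean was 0.759 ± 0.202 CPM in controls and 0.0971 ± 0.0969 CPM after anti-CD115, a log2 fold change of -3.03 (SE 0.61) with an adjusted p of 0.0520 in edgeR's quasi-likelihood test. Il1b was therefore not called, and it passed the low-count filter (a level of about 0.362 CPM in 4 libraries) only through its 4 controls, and a gene that passes in that way has to differ between the groups. The call depended on the tool: DESeq2, which called 1.22% of all genes lower, gave an adjusted p of 0.00358, limma-voom 0.0583 and edgeR without a sex term 0.0491. Leaving out 1 library at a time gave edgeR adjusted p-values of 0.0643 to 0.215 and log2 fold changes of -3.67 to -2.54.

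Il1a, which encodes interleukin 1 alpha, lies 54597 bases from Il1b at chr2:129299610-129309972 on the minus strand. Its counts were 1, 4, 6 and 13 in the controls and 4, 0, 2 and 1 in the treated libraries. Levels of both groups overlapped, and 1 control library, replicate 4, held 13 of the 24 control counts. The ratio of control to treated counts was 3.42 (95% interval 1.43 to 9.39 from counting error alone), and the exact permutation test of CPM over libraries gave p = 0.2, with 0.0286 as the smallest p that 4 against 4 allow. Gm14023, an antisense gene whose exons overlap those of Il1a, had 188 counts in all, and the strand setting of the counting is not given in the sources used here. The antisense gene Il1bos, which overlaps exons of Il1b, had 4 counts in all libraries together.

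Il18 encodes interleukin 18, the other cytokine cut by caspase 1 (chr9:50554827-50581840, plus strand). Its levels were 2.86, 2.52, 3.91 and 2.31 CPM in the controls and 3.37, 2.72, 2.52 and 2.69 CPM after anti-CD115. The treated libraries all lay within the range of the controls. The log2 fold change was -0.05 (SE 0.21, edgeR adjusted p = 0.959), and its sign turned without control replicate 3, to 0.16.

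Il1rn, the gene of the receptor antagonist (chr2:24336853-24351494, plus strand), was the least abundant member per length. It had 1, 2, 8 and 1 counts in the controls and 0, 5, 0 and 2 counts after anti-CD115, so that both groups had libraries at or under the limit set by 3 counts. The count ratio was 1.71 (95% interval 0.620 to 5.12, counting error alone; exact permutation p = 0.6 over libraries). A difference in the antagonist was not detectable at this depth.

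Il1r1 encodes the signalling receptor for both forms of interleukin 1 (chr1:40225080-40317257, plus strand). Control libraries had 23.4, 29.1, 19.1 and 47.7 CPM, and treated libraries had 21.1, 17.8, 19.4 and 28.3 CPM. The groups overlapped, and control replicate 4 stood highest. Means were 29.8 ± 12.6 and 21.7 ± 4.62 CPM, a log2 fold change of -0.45 (SE 0.25) that did not pass (edgeR adjusted p = 0.576). Without control replicate 4 it was -0.14.

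Both inflammasome genes were measured at low levels. Nlrp3, the sensor (chr11:59541568-59566956, plus strand), had 0.420, 0.770, 0.978 and 0.315 CPM in the controls and 0.175, 0.357, 0.176 and 0.0421 CPM after anti-CD115, from 74 and 22 counts in all. The lowest control lay below the highest treated library. The log2 fold change of -1.68 (SE 0.53) did not pass the edgeR test (adjusted p = 0.3). Casp1, the protease (chr9:5298517-5307265, plus strand), had 0.462, 0.385, 0.800 and 0.419 CPM in the controls and 0.246, 0.0357, 0.294 and 0.252 CPM in the treated libraries, from 61 and 24 counts. For Casp1 every treated library lay below every control, but the low-count filter fixed this in advance and nothing is read from it. The log2 fold change of -1.31 (SE 0.50) did not pass (edgeR adjusted p = 0.397). Casp1, like Il1b, passed the filter only through the 4 controls, and Nlrp3 passed it through 3 controls and 1 treated library.

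Tnf (chr17:35199381-35202007, minus strand) was at the edge of detection. Its counts were 1, 1, 9 and 4 in the controls and 0, 0, 0 and 3 in the treated libraries. The groups overlapped, since the treated library with reads (0.126 CPM) stood above control replicates 1 and 2, which had 1 read each. The count ratio of control to treated was 4.98 (95% interval 1.41 to 26.8, counting error alone), while the exact permutation test over libraries gave p = 0.171.

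The receptors for TNF were better measured than their ligand and differed from each other. Tnfrsf1b (chr4:145213463-145246870, minus strand) had 6.76, 7.0, 8.50 and 6.88 CPM in the controls and 3.44, 3.93, 4.11 and 4.33 CPM after anti-CD115, from 845 and 451 counts. The groups were well apart, and the spread within each was small. The mean went from 7.29 ± 0.817 to 3.95 ± 0.381 CPM, 1.85-fold lower, with a log2 fold change of -0.89 (SE 0.14) and an edgeR adjusted p of 0.0130. The call ended in males only (edgeR adjusted p = 0.0630) and without control replicate 1 (0.0665), treated replicate 1 (0.0603) or treated replicate 2 (0.0582). The fits in males only and without either replicate 1 are in effect the same comparison of males, since the sex term absorbs the female left. Log2 fold changes were -0.93 to -0.82 over all libraries left out in turn. Tnfrsf1a (chr6:125349362-125362484, plus strand) had 91.7, 115, 140 and 126 CPM in the controls and 103, 101, 111 and 114 CPM in the treated libraries. All treated libraries lay within the control range, and the log2 fold change of -0.12 (SE 0.10) did not pass (edgeR adjusted p = 0.701).

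The difference between the receptors was examined as their ratio within each library, a measure chosen after the values were seen. On the deposited FPKM scale, Tnfrsf1a exceeded Tnfrsf1b 19.97, 24.2, 24.2 and 26.9-fold in the controls and 44.3, 37.7, 39.95 and 38.8-fold after anti-CD115. The ranges did not overlap. The mean ratio was 23.8 ± 2.88 in controls and 40.2 ± 2.86 in treated pituitaries. Its separation follows from the lower Tnfrsf1b beside a Tnfrsf1a that differed little. The exact permutation p of 0.0286, the smallest possible, therefore adds no support. How many other genes would separate the groups when divided by Tnfrsf1b was not examined. Leaving out any 1 library kept the difference in means between 15.0 and 17.4, where the smallest possible p is 0.0571.

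**Figure D2:**
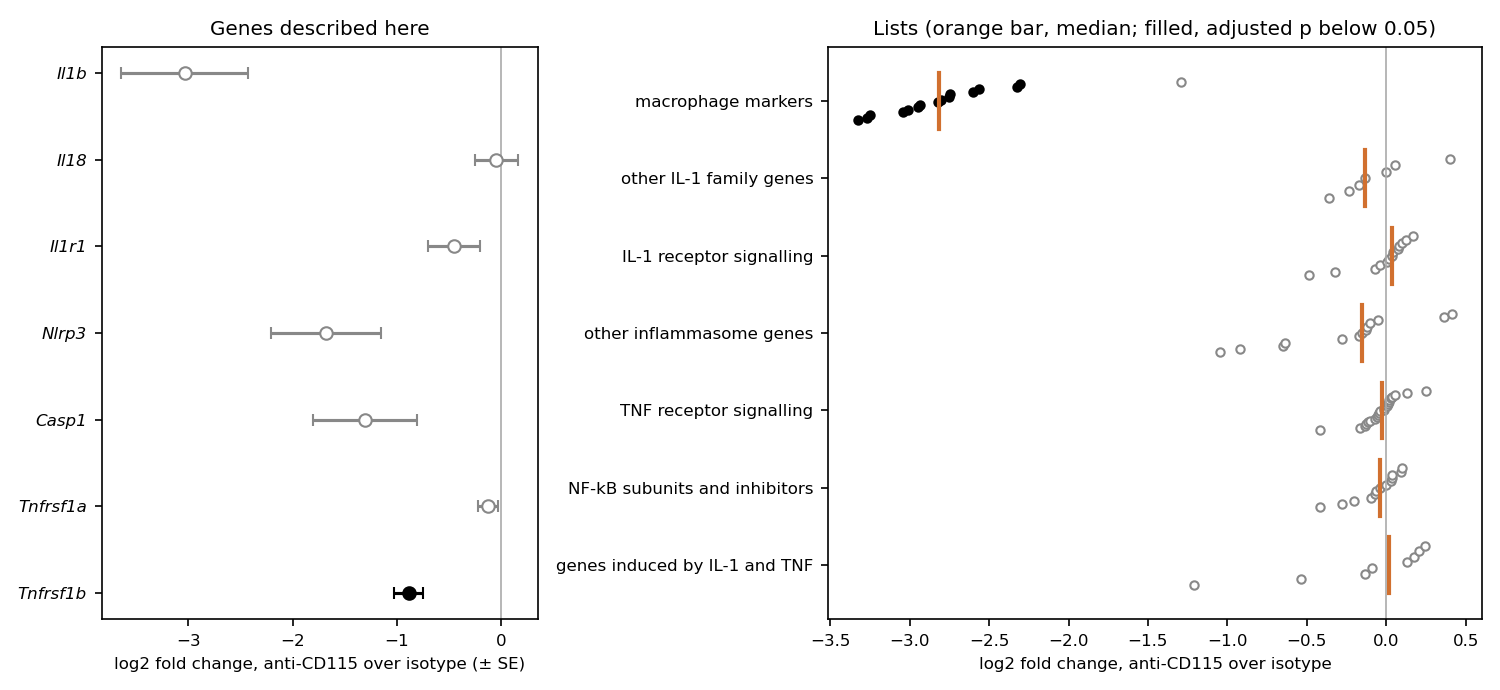
Log2 fold change of anti-CD115 over isotype control (x axes) from the edgeR fit, for the 7 members tested with SE bars (left) and for each gene of the pathway lists and the macrophage markers with the list median as an orange bar (right); filled points passed an adjusted p of 0.05. Tnfrsf1b at -0.89 is filled and Il1b at -3.03 is open. Il1b passed the low-count filter only through its controls, so nothing is read from its place beside the macrophage marker median of -2.81. The pathway medians lie between -0.15 and 0.04.

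The macrophage marker sums given above moved with these differences, and their part in them was not tested. Each member of at least 0.3 CPM over all libraries was therefore also expressed relative to the mean of the 16 markers in the same library, on a scale of log2(CPM + 0.1). The marker mean went from 3.55 in controls to 0.744 after anti-CD115 on that scale, a difference of -2.81. Relative to the markers, Tnfrsf1b was higher by 1.94 in treated libraries, Casp1 by 1.74, Nlrp3 by 1.47, Il1r1 by 2.41, Tnfrsf1a by 2.69 and Il18 by 2.79 (exact permutation p = 0.0286 for each, raw, 7 members compared). Of the genes tested, 98.6% had all treated libraries higher on this relative measure, so these 6 were like nearly all genes. For Nlrp3 the difference was 0.896 without treated replicate 2, and 1.17 with a pseudocount of 0.02 CPM, where the exact permutation p was 0.143. Il1b differed by 0.58 relative to the markers, its groups overlapped, and the permutation p was 0.457. Leaving out 1 library moved it by over 1.5 times in 4 cases, to 0.12 without treated replicate 2, 0.25 without treated replicate 4, 0.38 without control replicate 2 and 1.09 without treated replicate 3. This value for Il1b depended on the pseudocount, being 1.37 with 0.5 CPM (exact p = 0.0286) and -0.31 with 0.02 CPM (exact p = 0.857).

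**Figure D3:**
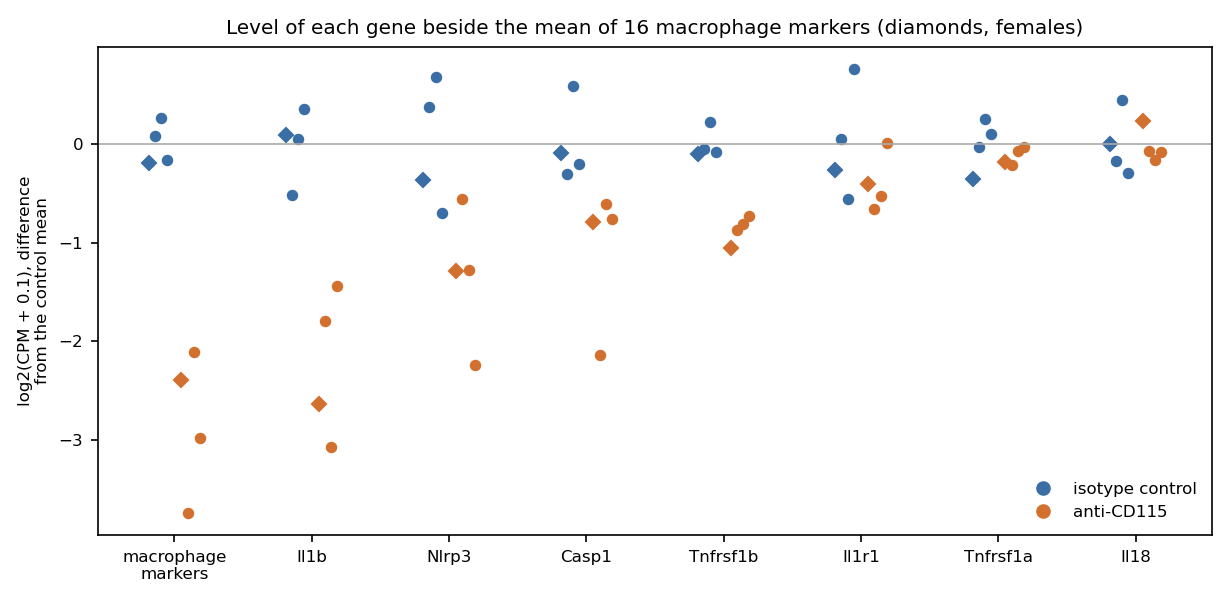
Difference of each library from the control mean in log2(CPM + 0.1) (y axis) for the mean of 16 macrophage markers and for 7 members (x axis), with isotype control in blue, anti-CD115 in orange and diamonds for females. The treated libraries of Il1b overlap in range with those of the markers, and the lowest treated libraries of Nlrp3 and Casp1 also reach that range. The place of Il1b depends on the pseudocount. Treated libraries of Tnfrsf1b lie apart from the controls but closer to 0, and those of Tnfrsf1a and Il18 overlap the controls.

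Markers of the other cell types the gland could hold were read beside the members. None of the 3 monocyte or 4 neutrophil markers tested passed. All 6 listed monocyte markers, untested ones included, summed to 4.66 to 9.69 CPM in controls and 3.32 to 4.57 CPM after anti-CD115. All 9 listed neutrophil markers summed to 1.6 to 8.56 CPM in controls and 3.53 to 6.64 CPM after anti-CD115. Single lymphoid and dendritic markers fell: Ighm among 4 B and plasma cell markers (log2 fold change -1.36) and Itgax among 3 dendritic cell markers (-2.20). Gzma among 4 T and NK cell markers also passed (-1.63), but its treated libraries had at most 0.316 CPM. It therefore reached the low-count filter's level of about 0.362 CPM only in controls, and nothing is read from its difference. The other markers of these lists did not pass, and some had values above 0: Trbc2 0.65, Cd79a 0.09, Zbtb46 0.16 and Clec9a 0.06, the last 2 being the other dendritic markers tested. None of 8 endothelial markers passed, while their sum was 318 to 470 CPM in controls and 473 to 535 CPM in treated libraries. Plvap alone had a mean of 190 CPM in controls. The group ranges of the monocyte and endothelial sums did not overlap but nearly met. No share over all genes was computed for such gaps, and nothing is read from them. All 3 monocyte markers tested had log2 fold changes below 0, and all 8 endothelial markers had values above 0. Of all 17723 genes tested, 8695 had values below 0. None of 9 mural and fibroblast, 6 stem and folliculostellate, 5 red blood cell or 10 endocrine markers passed. Endothelial cells can also express Tnfrsf1b and Il1r1. The part of these cell types in the members' levels was not tested.

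Of 101 further genes of the same pathways, 76 were tested and 0 passed in edgeR. At an unadjusted edgeR p under 0.05 there were 9 of 76 (11.8%), 8 lower and 1 higher. Beside this stood 10.3% of all 17723 genes tested, 1023 lower and 810 higher. DESeq2 called 1, P2rx7, as lower, beside 1.22% of all genes that it called lower. The median log2 fold change was -0.04 over the pathway genes, beside 0.00406 over all genes tested. Values below 0 were found in 45 of 76 pathway genes and in 8695 of the 17723 genes tested.

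Among other inflammasome and pyroptosis genes, 0 of 13 tested passed and the median log2 fold change was -0.15. P2rx7, the ATP-gated channel that can trigger NLRP3, had 3.69 ± 0.631 CPM in controls and 1.95 ± 0.583 CPM after anti-CD115 (log2 fold change -0.92, SE 0.24, edgeR adjusted p = 0.182; DESeq2 adjusted p = 0.0387). Gsdmd, the pore-forming substrate of caspase 1, had 3.54 ± 0.918 and 2.27 ± 0.419 CPM (log2 fold change -0.65, edgeR adjusted p = 0.373). Nlrc4, another inflammasome sensor, had a log2 fold change of -1.05 (edgeR adjusted p = 0.426). In each of these genes, chosen for their small p, every treated library lay below every control; that held for 5 of the 76 pathway genes tested, beside 3.31% of all genes. The Naip genes of this list are near-identical copies whose counts are uncertain.

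In the other lists the median log2 fold changes lay near 0. Of the other interleukin 1 family ligands, receptors and inhibitors, 7 of 14 were tested with a median of -0.13; the decoy Il18bp, which binds interleukin 18, had -0.36, Il18r1 had 0.40 and Il1rl2 had -0.24. Of the interleukin 1 receptor signalling genes, 13 of 13 were tested with a median of 0.04, and the adaptor Tab3 had -0.32, the kinase Irak2 -0.48 and Tab1 0.12. Of the TNF relatives and receptor signalling genes, 22 of 23 were tested with a median of -0.03, and Birc2, Cflar and Birc3, regulators of cell death at the receptor, had -0.13, 0.13 and -0.13. EdgeR adjusted p-values of these named genes ran from 0.375 to 0.808.

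The list of NF-kB subunits and inhibitors, which also holds Chuk, Ikbkb and Ikbkg, was tested in full (13 of 13, median -0.04). The subunits carry the signal of both receptor families to the nucleus. Rela, the p65 subunit, had 44.5 ± 1.39 CPM in controls and 38.7 ± 2.49 CPM after anti-CD115 (log2 fold change -0.20, edgeR adjusted p = 0.375). Its treated libraries all lay below the controls, as did those of 3.31% of all genes tested, and Rela was named for its small p. Rel had -0.42 and Nfkbie -0.28 on the log2 scale. Of 18 genes that interleukin 1 and TNF induce, 8 were tested with a median of 0.02: the adhesion molecule Vcam1 had -0.54, the chemokine Cxcl10 -1.21 and Nos2, the inducible nitric oxide synthase, 0.24. EdgeR adjusted p-values of these 5 genes ran from 0.376 to 0.777. The value of Cxcl10 was -2.06 without treated replicate 3 and -0.76 without replicate 1 of either group, and that of Nos2 was 0.05 without treated replicate 2 and 0.39 without treated replicate 3. Il6, the classical induced cytokine, had no read in any library.

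The adjusted p-values of Il1b and Tnfrsf1b, the members nearest the threshold, are plotted for every setting tried.

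**Figure D4:**
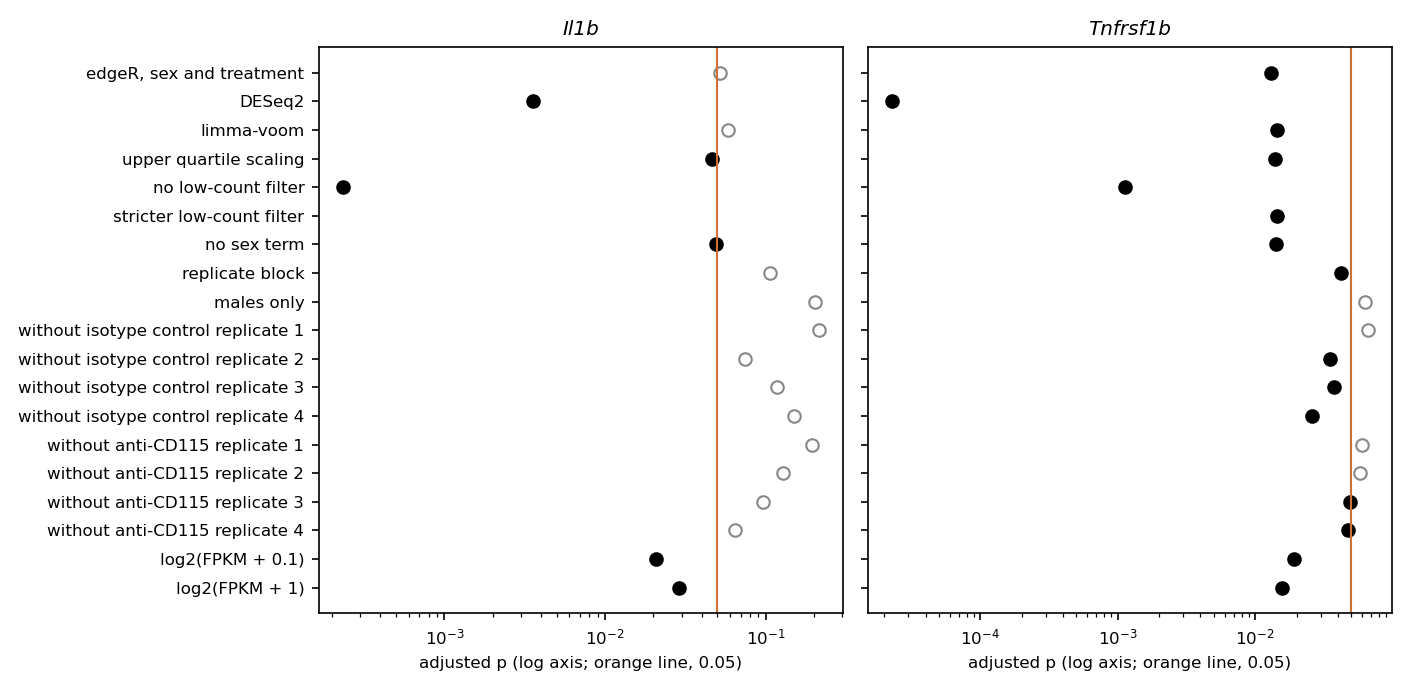
Adjusted p (x axes, logarithmic) of Il1b and Tnfrsf1b under each setting (y axis), with the threshold of 0.05 as an orange line and filled points below it. Il1b lies at 0.0520 in the edgeR fit with sex and treatment and on either side of the line elsewhere. Tnfrsf1b lies at 0.0130 in that fit and lies above the line in males only and in 3 of the fits that leave out a library. Among these, the fits without either female in effect repeat the comparison of males.

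The genes whose levels followed each member most closely over the 8 libraries are given as a description, by Pearson's r of log2(CPM + 0.1), where all points share the treatment groups and depth. Il1b was most like Ikzf1 (0.976), Ccl6 (0.967) and Lsm5 (0.964). Tnfrsf1b was most like Cd53 (0.989), Phf11b (0.986) and Ncf4 (0.986). Casp1 was most like Nlrc4 (0.977), BC028471 (0.973) and Rps3a1 (0.966), and Nlrp3 was most like 1700037C18Rik (0.976), Krt10 (0.964) and Tmem173 (0.962). Il1r1 was most like Tmcc3 (0.991), Fbxo33 (0.986) and Atxn7 (0.978). Il18 was most like Slc38a9 (0.966), Agap3 (0.961) and Upf3a (0.952), and Tnfrsf1a was most like Ramp1 (0.978), 5830408C22Rik (0.977) and Tango2 (0.973).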

How the data were processed

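The deposited table of counts holds whole-number read counts per gene without normalisation, and the deposited table of FPKM holds the same genes scaled by library size and gene length. The tools named in the submitters' processing notes are featureCounts 1.5.0-p3, HISAT2 2.0.5 and StringTie 1.3.3b, and the build is GRCm38; their settings, the strand setting included, are not given in the sources used here. From the counts, edgeR 4.0.16 in R 4.3.3 (filterByExpr, TMM, quasi-likelihood test with terms for sex and treatment) was fitted to all 8 libraries, with Benjamini-Hochberg adjustment over 17723 genes and a threshold of 0.05. Genes the filter dropped were compared by two-sided exact permutation of CPM (70 arrangements, SciPy 1.17.1). FPKM values served for levels between genes and, on log2(FPKM + 0.1) and log2(FPKM + 1), for alternatives in limma 3.58.1. Further alternatives were DESeq2 1.42.0, limma-voom, upper quartile scaling, no filter, a stricter filter (1 CPM in 4 libraries), no sex term, a replicate block, males only, and each library left out. The test was checked on simulated counts. Counts of replicates within a group differed by a chi-square of 15.9 or more per degree of freedom, so none was the same library sequenced again. The value cannot tell whether separately made libraries came from the same mouse.

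The members, gene lists and tests were chosen with earlier results of these data known. The text names all members, the 3 pathway genes per list with the smallest p where fewer than 3 passed, and the 3 genes most correlated with each member. Exon overlaps were read from GENCODE M21 and promoters from RefSeq.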

Additional observations from a re-analysis of the deposited data

Results flagged for a closer look

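In 20 groups of 4 libraries, 1 library stood far from the other 3 in 2 groups, where chance gives about 1 in 20 such groups. Tnf in anti-CD115 replicate 4 was 0.126 CPM, from 3 counts, while the other treated libraries had 0. Tnfrsf1b in isotype control replicate 3 was 8.50 CPM, and the next control had 7.0 CPM. Without that control the log2 fold change of Tnfrsf1b was -0.82 with an edgeR adjusted p of 0.0377.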

How the results depend on the processing

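The number of members called was 1 in the edgeR fit and became 2, with Il1b added, under DESeq2, upper quartile scaling, no low-count filter, no sex term and both FPKM scales. It was 0 in males only and 0 to 1 with 1 library left out. Calls over the whole table were 154, against 268 with DESeq2, 487 with no filter and 89 to 120 with 1 library left out. Pathway genes called were 0, against 1 (P2rx7) with DESeq2 and 1 with no filter. In most of these settings the cause was not tested; leaving out libraries lowers the number of samples. The sign turned for Il18 without control replicate 3 (0.16, in a range of -0.14 to 0.16 with 1 library left out) and for Il1b relative to the macrophage markers with a pseudocount of 0.02 CPM (-0.31), which was added after seeing the data. The replicate block gave Tnfrsf1b an adjusted p of 0.0425 and Il1b 0.107 in edgeR, and called 118 genes in all. Same-numbered libraries were not shown to be paired: the correlations of their deviations were 0.411, -0.100, 0.0637 and 0.305. A stricter filter removed Il1b, Nlrp3 and Casp1, so it gave no value for them. Il1a, Il1rn and Tnf, with 7, 7 and 3 treated counts, are limited by depth. The fits without either female equal a fit of the males plus 1 library that the sex term absorbs.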
